A study of Mus musculus with 3 samples.

Results

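The type I interferon effector genes described here are 9 genes, Ifit1, Ifit2, Ifit3, Isg15, Rsad2, Usp18, Oasl1, Oasl2 and Irf7, taken by name from the 32285 genes of a single-cell RNA table of mouse cochlea. All 9 had UMIs (unique molecular identifiers, each standing for 1 captured RNA molecule) in each of the 3 libraries. The C57BL/6J mice formed 3 groups: NIHL (noise-induced hearing loss; noise of 115 dB for 4 h over 3 days), HHL (hidden hearing loss; 2 h at 110 dB) and control, without noise. The interval between the end of noise and the removal of the cochleae was 6 h, and 6 mice were pooled into the 1 library of a group. A numeric suffix on the cell barcodes separates the libraries, but no label or file used here ties a suffix to a group. They are therefore called library 1, 2 and 3, are put into no group and are not compared as NIHL, HHL and control. With 1 sample each there is no replicate, no test was run, and every interval is an exact 95% interval (Poisson for levels, Clopper-Pearson for shares) that covers counting error only.

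Type I interferons are secreted when a cell senses foreign or misplaced nucleic acid, and they bind the receptor of Ifnar1 and Ifnar2 on nearly every nucleated cell. The kinases Jak1 and Tyk2 then activate transcription factors, which together with Irf9 bind the interferon-stimulated response element in front of the induced genes. In the cochlea, macrophages are the main resident immune cells, and noise damage is known to bring in further leukocytes. Ifit1, Ifit2 and Ifit3 encode proteins that bind RNA and restrain translation of viral RNA. Isg15 is a ubiquitin-like protein that is attached to other proteins, and Usp18 removes it and also holds back signalling at the receptor. Rsad2 (viperin) makes an antiviral nucleotide. Oasl1 and Oasl2 are relatives of the oligoadenylate synthetases, and mouse Oasl1 limits translation of Irf7 RNA. Irf7 is the transcription factor that induces the type I interferon genes. Ifit1 and Ifit3 have near copies (Ifit1bl1, Ifit1bl2 and Ifit3b) and Oasl1 and Oasl2 are alike, so reads that fit more than 1 copy could have been split or dropped in counting.

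The sequences in front of Ifit1, Ifit3, Isg15 and Rsad2 are shown because they hold letters of the response element. RefSeq windows of 300 bases, 250 before and 50 after the gene's start, were available for 8 of the 9 genes, all but Usp18. Their build is GRCm38.p6, whereas the counts were made on GRCm39, so these coordinates belong to the windows alone. The motif TTTCNNTTTC, or GAAANNGAAA on the other strand, was searched on both strands with overlapping matches counted singly. It was found for 4 of the 8 genes, in 3.44% of all 32851 windows, and in 12 of the 19 other interferon-induced genes that had a window. In all, 0.225% of windows held 2 or more matches. A match describes the letters and not binding. The 200 bases before each start are given 5′ to 3′ on the gene's strand with matches in capitals, at chr19:34640689-34640888 (plus strand), chr19:34583329-34583528 (plus strand), chr4:156200819-156201018 (minus strand) and chr12:26456453-26456652 (minus strand).
Ifit1: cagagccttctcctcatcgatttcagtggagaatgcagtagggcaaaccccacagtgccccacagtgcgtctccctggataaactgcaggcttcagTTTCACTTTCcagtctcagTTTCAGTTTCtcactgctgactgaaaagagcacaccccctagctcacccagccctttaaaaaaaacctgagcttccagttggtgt
Ifit3: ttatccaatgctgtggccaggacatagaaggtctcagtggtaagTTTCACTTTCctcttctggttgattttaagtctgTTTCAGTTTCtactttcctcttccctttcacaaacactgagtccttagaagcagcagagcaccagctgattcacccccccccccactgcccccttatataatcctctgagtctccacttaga
Isg15: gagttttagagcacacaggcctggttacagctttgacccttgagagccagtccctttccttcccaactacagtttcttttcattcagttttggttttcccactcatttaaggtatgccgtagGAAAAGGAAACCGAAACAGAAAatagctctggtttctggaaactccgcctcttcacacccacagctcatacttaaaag
Rsad2: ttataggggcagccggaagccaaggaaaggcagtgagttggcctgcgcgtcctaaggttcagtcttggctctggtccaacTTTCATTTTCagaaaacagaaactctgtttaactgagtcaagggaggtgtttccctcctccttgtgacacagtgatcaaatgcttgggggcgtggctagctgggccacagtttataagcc
The matches began 104 and 85 bases before the start of Ifit1, 156 and 122 bases before that of Ifit3 and 120 bases before that of Rsad2. The 3 matches of Isg15 began 78, 72 and 66 bases before the start and each overlaps the next.

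A barcode was kept with 500 or more UMIs, 200 or more genes and no more than 20% of UMIs from mitochondrial genes, and the kept barcodes numbered 10703 in library 3, against 16883 and 9602 in libraries 1 and 2. The median kept cell had 8098 UMIs in library 3, against 5464 and 6294 UMIs in libraries 1 and 2, so library 3 was the deepest. Barcode sequences that were also kept in another library numbered 83 in library 3, against 98 and 76 in libraries 1 and 2, and 1 was kept in all 3. Cells were placed in 22 classes by marker genes that include no member, and a class was given to 79.4% in library 3, against 86.4% and 85.2% in libraries 1 and 2. The tissue is labelled cochlea, but most classed cells were of blood lineages. They included precursor stages, with 7250 immature neutrophils, 2738 granulocyte-monocyte progenitors and 223 pro-B or pre-B cells over the 3 libraries. Whether blood-lineage cells came from the cochlea itself, from blood or from bone marrow taken with it was not tested. Fibrocytes or strial basal cells of the cochlear lateral wall numbered 300 in library 3, against 90 and 138 in libraries 1 and 2, and hair cells 0 in library 3, against 15 and 8 in libraries 1 and 2. Levels are in CPM, counts per 1e6, here the UMIs of a gene per 1e6 UMIs summed over the cells of a class. In 3′ UMI counts a molecule counts once whatever its length, so CPM is not scaled by gene length. How well the RNA of each gene was captured was not measured, so orders of genes by CPM are orders of counts. Counts of Ifit1, Ifit3, Oasl1 and Oasl2 may in addition miss reads shared with near copies. Leiden clustering, an unsupervised grouping of cells by 2000 variable genes, was set beside the classes, and these genes include 5 members (Ifit1, Ifit2, Ifit3, Isg15 and Rsad2). In macrophages, mature and immature neutrophils, monocytes, granulocyte-monocyte progenitors, erythroid cells and fibrocytes or strial basal cells the cluster with the most cells was not the same in every library. Those clusters are named beside the values of these classes. Since members took part in the clustering, a cell's cluster can depend on their level. Levels within a cluster are therefore descriptions and do not separate the level of members from the choice of cells.

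Over all kept cells the summed level of the 9 genes was 645 (641 to 649) CPM in library 3, against 213 (211 to 216) and 289 (286 to 293) CPM in libraries 1 and 2. The most abundant member in library 3 was Isg15, with 223 CPM in library 3, against 39.6 and 78.0 CPM in libraries 1 and 2. Rsad2 stood at 103 CPM in library 3, against 43.7 and 88.6 CPM in libraries 1 and 2. Both were lowest in library 1, and Rsad2 of library 2 came close to that of library 3. Oasl2 stood at 96.7 CPM in library 3, against 47.2 and 30.9 CPM in libraries 1 and 2. Irf7 stood at 87.3 CPM in library 3, against 22.5 and 18.9 CPM in libraries 1 and 2. Ifit1 stood at 46.2 CPM in library 3, against 24.0 and 33.1 CPM in libraries 1 and 2. Usp18, Ifit3, Oasl1 and Ifit2 were lower in level. Usp18 stood at 26.7 CPM in library 3, against 7.12 and 6.21 CPM in libraries 1 and 2. Ifit3 stood at 24.8 CPM in library 3, against 10.1 and 16.2 CPM in libraries 1 and 2. Oasl1 stood at 20.2 CPM in library 3, against 6.77 and 8.60 CPM in libraries 1 and 2. Ifit2 came last of the 9 in library 3, with 17.0 CPM in library 3, against 12.3 and 8.81 CPM in libraries 1 and 2. For every member the interval of library 3 lay above those of both other libraries. How many of all genes would meet this rule was not computed, here or by class, so such counts are descriptions only. Because the libraries differ in their mix of cells, levels are given by class from here on, for the 15 classes with at least 50 cells in each library. In such sums fewer responding cells and less RNA per cell cannot be told apart, so shares of cells are given further on.

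Macrophages, mature neutrophils and endothelial cells had the highest summed levels in library 3. Macrophages stood at 2172 (2129 to 2216) CPM in library 3, against 523 (479 to 569) and 468 (440.4 to 497) CPM in libraries 1 and 2. Mature neutrophils stood at 2034 (2002 to 2066) CPM in library 3, against 719.6 (704 to 735) and 459.5 (445 to 474) CPM in libraries 1 and 2. Endothelial cells stood at 2029 (1929 to 2132) CPM in library 3, against 639 (587 to 693) and 916 (848 to 987) CPM in libraries 1 and 2. In none of these classes did the interval of library 3 overlap that of another library. The order of classes differed between libraries, since macrophages ranked 1 of 15 in library 3, against 5 and 3 in libraries 1 and 2. Fibrocytes or strial basal cells ranked 6 in library 3, against 1 and 1 in libraries 1 and 2. Natural killer cells were lowest in library 3, and their intervals in libraries 3 and 1 overlapped, at 148 (121 to 179.6) CPM in library 3, against 129.9 (105 to 159) and 71.2 (46.5 to 104) CPM in libraries 1 and 2. Over the 15 classes the summed interval of library 3 lay above both others in 12. It lay below both in 1, the fibrocytes or strial basal cells, while natural killer cells and fibroblasts were in neither set.

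**Figure D1:**
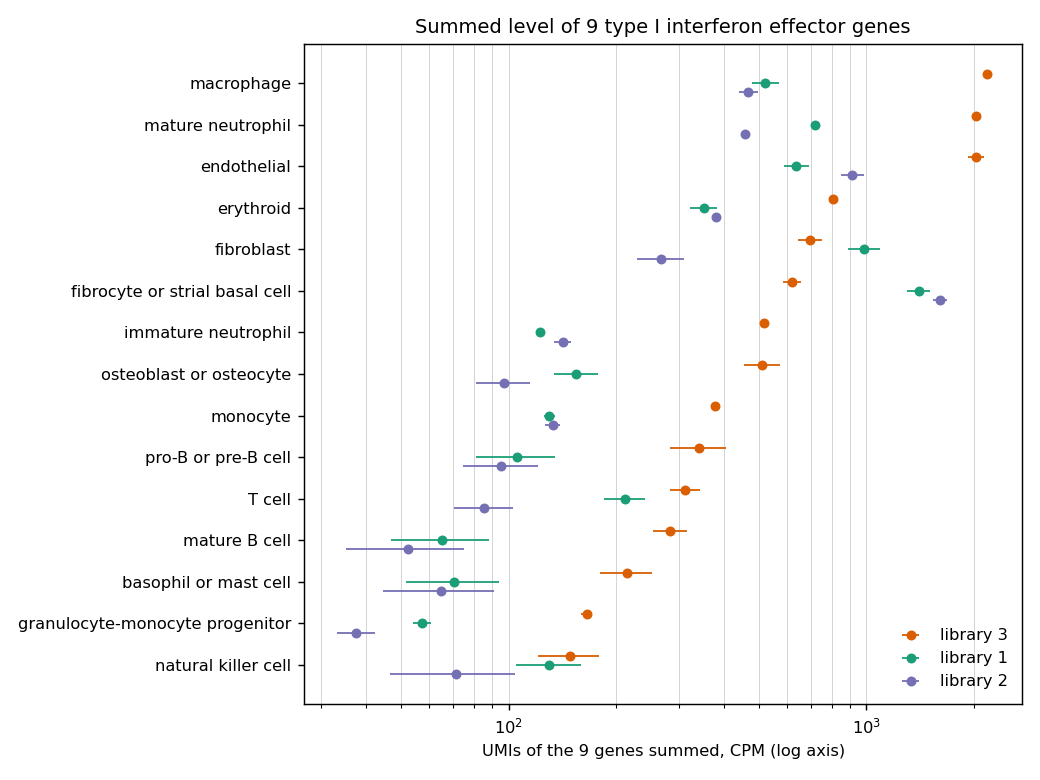
Summed level of the 9 genes in CPM (log axis) in 15 cell classes, 1 point per library with its exact 95% Poisson interval. Macrophages stand at 2172 CPM in library 3, against 523 and 468 CPM in libraries 1 and 2, and fibrocytes or strial basal cells at 619.5 CPM in library 3, against 1403 and 1610 CPM in libraries 1 and 2.

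In macrophages every member stood above libraries 1 and 2 in library 3 with no overlap of intervals, a rule whose share over all genes was not computed. Irf7 was the most abundant member in library 3, and its level there was the highest of any class in any library, with 529 (507 to 551) CPM in library 3, against 87.4 (70.3 to 108) and 80.6 (69.4 to 93.1) CPM in libraries 1 and 2. Isg15 stood at 461 CPM in library 3, against 124 and 87.2 CPM in libraries 1 and 2. Rsad2 stood at 456 CPM in library 3, against 143 and 109 CPM in libraries 1 and 2. These made up the larger part of the summed level in library 3. Among the RNA-binding Ifit genes Ifit2 was the highest, with 177 CPM in library 3, against 40.8 and 30.5 CPM in libraries 1 and 2. Ifit3 stood at 127 CPM in library 3, against 35.0 and 38.4 CPM in libraries 1 and 2. Ifit1 stood at 102 CPM in library 3, against 12.6 and 27.0 CPM in libraries 1 and 2. The order Ifit2, Ifit3, Ifit1 in library 3 macrophages is the reverse of that in mature neutrophils. Oasl2 stood at 217 CPM in library 3, against 54.4 and 61.0 CPM in libraries 1 and 2. Oasl1 stood at 54.4 CPM in library 3, against 9.72 and 22.2 CPM in libraries 1 and 2. Usp18, the brake on the receptor, was the lowest member there, with 49.6 CPM in library 3, against 15.5 and 12.6 CPM in libraries 1 and 2. In library 3 the median macrophage had 7248 UMIs, against 3435 and 6973 UMIs in libraries 1 and 2. Cluster 1 held the most macrophages in library 3 (263 of 518), whereas cluster 2 did in libraries 1 and 2 (147 of 262 and 177 of 291). Members took part in the clustering, so levels within these clusters are not independent of it. The summed level was 2834 (2767 to 2904) CPM in library 3, against 442 (380 to 510.1) and 403 (359 to 451) CPM in libraries 1 and 2 within cluster 1, and 1603 (1541 to 1668) CPM in library 3, against 614 (548 to 687) and 526 (489 to 565) CPM in libraries 1 and 2 within cluster 2, highest in library 3 in both.

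Mature neutrophils had the highest Oasl2 and Ifit1 of the compared classes in library 3. Oasl2 stood at 451 (436 to 467) CPM in library 3, against 216 (208 to 225) and 115 (108 to 122) CPM in libraries 1 and 2. Ifit1 stood at 240.4 (229.5 to 252) CPM in library 3, against 64.3 (59.8 to 69.0) and 36.1 (32.2 to 40.3) CPM in libraries 1 and 2, and its interval in library 3 overlapped that of endothelial cells. Isg15 stood at 478 CPM in library 3, against 110.3 and 97.6 CPM in libraries 1 and 2. All of these were higher in library 3 without overlap. The cluster with the most of these cells differed by library, and was cluster 13 in library 3 (799 of 1619 cells), cluster 12 in library 1 (2505 of 3480) and cluster 44 in library 2 (1169 of 2449). Within cluster 13, which held 58 and 45 mature neutrophils of libraries 1 and 2, the summed level was 2819 (2761 to 2878) CPM in library 3, against 4896 (4550 to 5262) and 3161 (2878 to 3465) CPM in libraries 1 and 2. The interval of library 3 there lay below that of library 1 and met that of library 2. Ifit1, Ifit2, Ifit3, Isg15 and Rsad2 took part in the clustering. The few cells of libraries 1 and 2 could thus fall in cluster 13 because these members were high in them, which was not tested. Within cluster 12 it was 926 (835 to 1023) CPM in library 3, against 788 (767 to 809.5) and 774 (590.3 to 996) CPM in libraries 1 and 2, and within cluster 44 518 (463 to 577) CPM in library 3, against 696 (508 to 931) and 317 (300.4 to 334) CPM in libraries 1 and 2. In neither was library 3 above both others without overlap. Over all classes cluster 12 held only 28 cells of library 2, and cluster 44 only 23 of library 1. Ifit3 had the largest log2 ratio of library 3 over the geometric mean of libraries 1 and 2 in this class, 3.08, at 151 CPM in library 3, against 20.6 and 15.3 CPM in libraries 1 and 2. Rsad2 had the smaller ratio of 1.15, at 354 CPM in library 3, against 203 and 126 CPM in libraries 1 and 2. Ifit2 was the lowest member, at 29.6 CPM in library 3, against 5.13 and 4.15 CPM in libraries 1 and 2. Oasl1 was at its highest of any class in each library, although in each library the next class overlapped it, at 60.4 CPM in library 3, against 27.7 and 25.1 CPM in libraries 1 and 2. The share of the UMIs of the 9 genes held by Oasl1 and Oasl2 together was 25.2% in library 3, against 33.9% and 30.4% in libraries 1 and 2 for mature neutrophils. For macrophages it was 12.5% in library 3, against 12.3% and 17.8% in libraries 1 and 2.

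Endothelial cells had the highest Isg15 of the classes of library 3, with 549.9 (499 to 605) CPM in library 3, against 146 (122 to 174) and 182 (152 to 215) CPM in libraries 1 and 2. Irf7 stood at 288 CPM in library 3, against 66.5 and 47.1 CPM in libraries 1 and 2. Ifit2 stood at 143 CPM in library 3, against 49.9 and 29.6 CPM in libraries 1 and 2. Both were above libraries 1 and 2 without overlap. Ifit1 was not, at 211 (179.9 to 246) CPM in library 3, against 57.6 (43.1 to 75.6) and 169.6 (141 to 202) CPM in libraries 1 and 2. Ifit3 was not either, at 205 (174 to 239) CPM in library 3, against 39.9 (28.0 to 55.3) and 176 (148 to 209) CPM in libraries 1 and 2. Single cells weighed heavily in this small class. In library 3, 1 cell held 434 of the 1557 UMIs of the 9 genes, and in library 2, 1 cell held 253 of the 680. The 5% of endothelial cells with the most such UMIs held 45.3% in library 3, against 33.5% and 73.5% in libraries 1 and 2. Without them library 3 was still the highest, with 1208 CPM in library 3, against 468 and 297 CPM in libraries 1 and 2.

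Erythroid cells carried mainly Isg15 and Rsad2. Isg15 stood at 390.4 (383 to 398) CPM in library 3, against 153 (134 to 174) and 141 (137 to 146) CPM in libraries 1 and 2. Rsad2 stood at 181 (176 to 186) CPM in library 3, against 122 (105 to 141) and 187 (181 to 192) CPM in libraries 1 and 2. Rsad2 of library 3 therefore did not exceed that of library 2, unlike Isg15. The share of the UMIs of the 9 genes held by these 2 together was 70.8% in library 3, against 78.2% and 86.1% in libraries 1 and 2. Ifit1, Ifit2 and Ifit3 together held 4.61% in library 3, against 4.43% and 3.81% in libraries 1 and 2. In fibrocytes or strial basal cells the Ifit genes held 36.6% in library 3, against 45.9% and 56.8% in libraries 1 and 2, so the balance of the members differed between these classes in each library. Ifit3 had 99 UMIs in erythroid cells of library 3, against 0 and 51 UMIs in libraries 1 and 2, and the 0 allows up to 2.03 CPM. Irf7 stood at 73.9 CPM in library 3, against 20.3 and 14.0 CPM in libraries 1 and 2. Oasl2 stood at 73.5 CPM in library 3, against 24.4 and 11.8 CPM in libraries 1 and 2. Both were higher in library 3 without overlap. Cluster 37 held the most of these cells in library 3 (533 of 1354) and in library 1 (77 of 147), and cluster 38 in library 2 (642 of 1740). The summed level was 464 (453 to 476) CPM in library 3, against 230.3 (197 to 267) and 70.8 (65.6 to 76.3) CPM in libraries 1 and 2 within cluster 37, and 1400 (1352 to 1450) CPM in library 3, against 396 (300.3 to 511) and 379 (364 to 394) CPM in libraries 1 and 2 within cluster 38. Cluster 38 held only 14 cells of library 1 over all classes, so its value there rests on few cells.

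Fibrocytes or strial basal cells had the opposite order of libraries. Their summed level was 619.5 (584 to 657) CPM in library 3, against 1403 (1302 to 1509) and 1610 (1536 to 1686) CPM in libraries 1 and 2. Ifit1 was the main member in libraries 1 and 2, at 121 (105 to 138) CPM in library 3, against 439 (383 to 499.5) and 593 (549 to 640.2) CPM in libraries 1 and 2. In libraries 1 and 2 this was the highest Ifit1 of any class. Ifit3 stood at 96.7 CPM in library 3, against 188 and 286 CPM in libraries 1 and 2. Rsad2 stood at 33.7 CPM in library 3, against 196 and 109 CPM in libraries 1 and 2. Isg15 stood at 183 CPM in library 3, against 367 and 289 CPM in libraries 1 and 2. These 4 members and Oasl1, at 5.43 CPM in library 3, against 27.2 and 17.8 CPM in libraries 1 and 2, were below both other libraries without overlap. Oasl2 was not, at 110.3 (95.7 to 127) CPM in library 3, against 115 (87.1 to 148) and 159.9 (137 to 185) CPM in libraries 1 and 2. Irf7 was not, at 41.8 (33.0 to 52.3) CPM in library 3, against 27.2 (14.9 to 45.6) and 81.7 (65.9 to 100.2) CPM in libraries 1 and 2. Ifit2 and Usp18 also overlapped at least 1 other library. Cluster 51 held the most of these cells in library 3 (145 of 300), whereas cluster 0 did in libraries 1 and 2 (59 of 90 and 79 of 138). Here too, levels within clusters are not independent of the clustering. The summed level was 636 (579.9 to 695) CPM in library 3, against 2076 (1909 to 2252) and 2014 (1900 to 2133) CPM in libraries 1 and 2 within cluster 0, and 521 (475 to 569) CPM in library 3, against 1621 (1291 to 2010) and 851 (732 to 985) CPM in libraries 1 and 2 within cluster 51, lowest in library 3 in both. Cluster 51 held only 29 cells of library 1 over all classes. Without the 5% of cells with the most UMIs of the 9 genes, library 3 was still the lowest, with 429 CPM in library 3, against 925 and 805 CPM in libraries 1 and 2. Of these cells, 0.568% were called doublets and 0.758% also met the marker rule of another class.

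Fibroblasts gave an order that rested on few cells. Their summed level was 697 (644 to 754) CPM in library 3, against 988 (892 to 1092) and 267 (229 to 310) CPM in libraries 1 and 2. In library 1, 1 cell held 68 of the 109 Rsad2 UMIs of the class, and Rsad2 stood at 66.1 CPM in library 3, against 280.4 and 19.8 CPM in libraries 1 and 2. The 5% of cells with the most UMIs of the 9 genes held 49.8% in library 3, against 80.5% and 51.7% in libraries 1 and 2. Without them the order of libraries 3 and 1 turned, with 382 CPM in library 3, against 208 and 151 CPM in libraries 1 and 2. Isg15 stood at 175 (149 to 205) CPM in library 3, against 154 (118 to 199) and 48.6 (33.3 to 68.6) CPM in libraries 1 and 2, with libraries 3 and 1 overlapping.

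**Figure D2:**
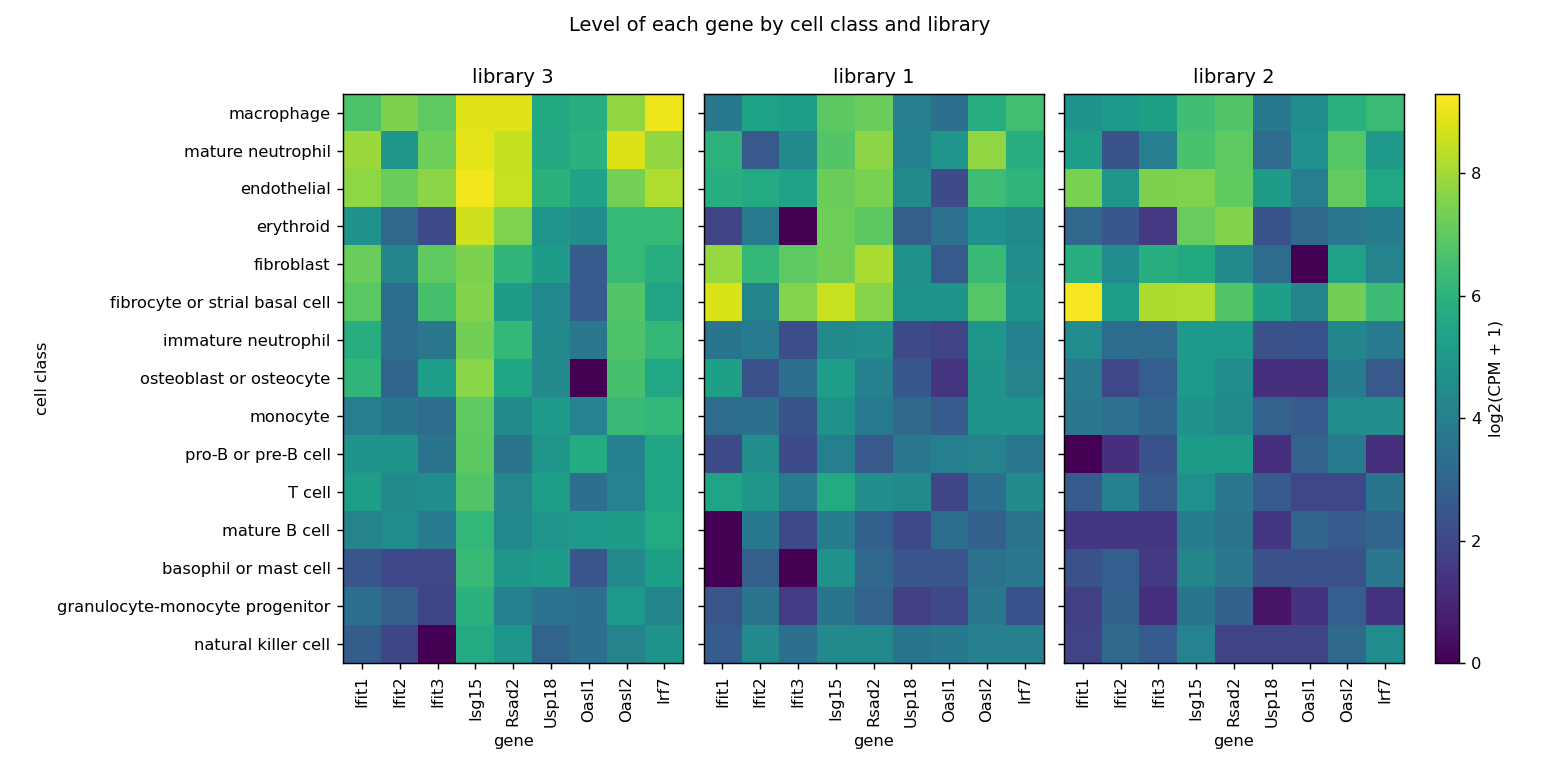
Level of each of the 9 genes as log2(CPM + 1) in 15 cell classes, 1 panel per library, with yellow for high and dark blue for low. Fibrocytes or strial basal cells are high for Ifit1 in libraries 1 and 2 (439 and 593 CPM, against 121 CPM in library 3), and macrophages are high for Irf7 in library 3 (529 CPM).

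The other blood classes were lower in library 3 than macrophages, mature neutrophils and erythroid cells. Immature neutrophils stood at 517 CPM in library 3, against 123 and 142 CPM in libraries 1 and 2. Cluster 50 held the most of them in library 3 (430 of 1106) and library 2 (400 of 967), and cluster 17 in library 1 (1460 of 5177). Within cluster 50, with 36 such cells in library 1, the summed level was 343 (329 to 358) CPM in library 3, against 61.8 (32.0 to 108) and 45.6 (39.2 to 52.7) CPM in libraries 1 and 2. Ifit2 was their exception, at 8.95 CPM in library 3, against 12.8 and 8.77 CPM in libraries 1 and 2, and was highest in library 1 without overlap. In library 2, 1 immature neutrophil held 370 of the 1372 UMIs of the 9 genes. Monocytes stood at 377 CPM in library 3, against 130.2 and 133 CPM in libraries 1 and 2. The cluster with the most of them differed by library, and was cluster 28 in library 3 (723 of 1462), cluster 7 in library 1 (1134 of 2713) and cluster 29 in library 2 (811 of 1161). Within cluster 28, with only 28 cells of library 1 over all classes, the summed level was 369.7 (359 to 380.2) CPM in library 3, against 227 (166 to 302) and 125 (112 to 140.2) CPM in libraries 1 and 2. Within cluster 11, whose monocytes numbered 429 in library 3, against 189 and 6 in libraries 1 and 2, it was 389 (375 to 404) CPM in library 3, against 405 (372 to 440.2) and 828 (545 to 1204) CPM in libraries 1 and 2, so library 3 did not stand above the other libraries there. Their Isg15 stood at 126 CPM in library 3, against 26.1 and 26.4 CPM in libraries 1 and 2. Their Ifit1 did not stand above library 2 without overlap, at 14.9 CPM in library 3, against 8.87 and 12.0 CPM in libraries 1 and 2. Plasmacytoid dendritic cells, known as strong interferon producers, had only 37 cells in library 2 and were not among the compared classes. Irf7 was their main member in each library, at 295 (252 to 344) CPM in library 3, against 80.2 (60.3 to 105) and 56.6 (30.9 to 94.9) CPM in libraries 1 and 2. Its share of the UMIs of the 9 genes there was 45.6% in library 3, against 49.5% and 25.0% in libraries 1 and 2, whereas in macrophages the share was 24.3% in library 3, against 16.7% and 17.2% in libraries 1 and 2.

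Lymphocytes and progenitors stood below macrophages in every library. Mature B cells stood for the 9 genes together at 283 (254 to 315) CPM in library 3, against 65.1 (46.9 to 88.0) and 52.3 (35.0 to 75.1) CPM in libraries 1 and 2. T cells stood at 312 (283 to 344) CPM in library 3, against 212 (185 to 241) and 85.4 (70.4 to 103) CPM in libraries 1 and 2. Granulocyte-monocyte progenitors stood at 165 (159.8 to 171) CPM in library 3, against 57.3 (54.2 to 60.6) and 37.5 (33.1 to 42.2) CPM in libraries 1 and 2. All 3 of these classes were higher in library 3 without overlap. Cluster 47 held the most progenitors in library 3 (374 of 923) and library 2 (245 of 420), and cluster 5 in library 1 (647 of 1395). Within cluster 47, with 8 progenitors of library 1, the summed level was 152 (142 to 162) CPM in library 3, against 269 (162 to 419.5) and 24.7 (19.7 to 30.5) CPM in libraries 1 and 2, so library 3 did not stand above library 1 there. In mature B cells Isg15 stood at 70.0 CPM in library 3, against 14.0 and 14.4 CPM in libraries 1 and 2. Ifit1 had 20 UMIs in mature B cells of library 3, against 0 and 1 UMIs in libraries 1 and 2. In T cells Ifit1 did not follow this order, with 35.6 (26.1 to 47.3) CPM in library 3, against 42.2 (30.8 to 56.4) and 5.29 (2.13 to 10.9) CPM in libraries 1 and 2. In progenitors Isg15 stood at 59.9 CPM in library 3, against 11.3 and 11.3 CPM in libraries 1 and 2. Usp18 stood at 10.6 CPM in library 3, against 2.36 and 0.422 CPM in libraries 1 and 2, resting on 220 UMIs in library 3, against 51 and 3 UMIs in libraries 1 and 2. Osteoblasts or osteocytes stood for the 9 genes at 513 (455 to 576) CPM in library 3, against 155 (134 to 178) and 97.1 (81.3 to 115) CPM in libraries 1 and 2. In library 3, 1 of these 51 cells held 130 of the 285 UMIs. Without the 5% of cells with the most, the class stood at 232 CPM in library 3, against 61.2 and 39.9 CPM in libraries 1 and 2.

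Among rarer cochlear cells, strial intermediate cells or melanocytes carried mainly the Ifit genes, whose share of the UMIs of the 9 genes was 60.4% in library 3, against 53.9% and 68.9% in libraries 1 and 2. Their Ifit3 stood at 171 (107 to 259) CPM in library 3, against 236 (126 to 403) and 145 (111 to 186) CPM in libraries 1 and 2, and these intervals overlap. Such cells numbered 17 in library 3, against 9 and 34 in libraries 1 and 2. Myelinating Schwann cells, with 34 cells in library 2 too few to be compared, stood for the 9 genes together at 1041 (936 to 1155) CPM in library 3, against 155 (112 to 209) and 132 (84.5 to 196) CPM in libraries 1 and 2. In library 3 the 5 of 81 Schwann cells with the most such UMIs held 66.9% of them. Without the 5% of cells with the most, Schwann cells stood at 379.8 CPM in library 3, against 92.3 and 77.7 CPM in libraries 1 and 2. Hair cells held 1 UMI of the 9 genes in 15 cells of library 1 and 3 UMIs in 8 cells of library 2, a depth at which a low level and none cannot be told apart.

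For a count over genes, a gene was called higher in a library at 1.5-fold or more over the geometric mean of the other 2 libraries, among genes with at least 20 UMIs in the class over the 3 libraries. A count of 0 was set to 3, and no test stands behind a call. A member could pass that filter through library 3 alone, as Ifit1 did in mature B cells, so a count of tested members in the smaller classes is no support. In macrophages 9 of 9 members were higher in library 3, beside 12.3% of all genes. In mature neutrophils it was 9 of 9, beside 12.5%, and in endothelial cells 9 of 9, beside 11.0%. In mature B cells it was 8 of 8, beside 10.3%, in osteoblasts or osteocytes 6 of 6, beside 15.8%, and in basophils or mast cells 5 of 5, beside 11.6%. In immature neutrophils it was 8 of 9, beside 8.69%, and in granulocyte-monocyte progenitors 8 of 9, beside 14.6%, with Ifit2 not called in either. In T cells it was 7 of 9, beside 9.28%, and in erythroid cells 7 of 9, beside 13.1%, with Ifit2 and Rsad2 not called in either. In monocytes it was 6 of 9, beside 10.6%, without Ifit1, Ifit2 and Rsad2. In pro-B or pre-B cells it was 4 of 6, beside 15.1%, and in natural killer cells 3 of 4, beside 10.7%. In fibroblasts 4 of 8 were higher in library 3, beside 12.3%, and 4 of 8 in library 1, beside 15.1%. In fibrocytes or strial basal cells 0 of 9 were higher in library 3, beside 13%, against 4 of 9 in library 1, beside 16.2%, and 5 of 9 in library 2, beside 12.6%.

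In all, 93 of 118 pairs of a member and a class (78.8%) were higher in library 3, beside 12.0% of 157310 pairs over all genes. The members and the lists below were chosen with earlier results of these data known. The difference from all genes is therefore a description and no support, and pairs of 1 library are not independent. With 20 UMIs asked of libraries 1 and 2 together instead, 72 of 96 pairs were higher in library 3, beside 9.52% of pairs over all genes, and no member was tested in mature B cells. The median log2 ratio of the 9 members was 2.20 in mature neutrophils (all genes −0.15) and 1.92 in macrophages (all genes −0.01). In fibrocytes or strial basal cells it was −1.26 (all genes 0.01), and 7 of the 9 were lower by the same limit, beside 12.8% of all genes. Members differed in how widely they were called. Isg15 was higher in library 3 in 14 of 15 classes, Irf7 in 13 of 15, Oasl2 in 12 of 15, Usp18 in 11 of 12 and Ifit3 in 10 of 11. Oasl1 was higher in 10 of 11, Ifit1 in 9 of 12, Rsad2 in 9 of 15 and Ifit2 in 5 of 12. By intervals above both other libraries, Isg15 led with 12 of 15 classes and Ifit2 was last with 3. The share over all genes was not computed for intervals, so these counts only order the members. Some classes were mixed, since 70.2% of osteoblasts or osteocytes, 47.1% of pro-B or pre-B cells and 39.2% of immature neutrophils also met the marker rule of another class. With such cells left out everywhere, 82 of 105 pairs were higher, but the share over all genes was not computed for these cells.

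**Figure D3:**
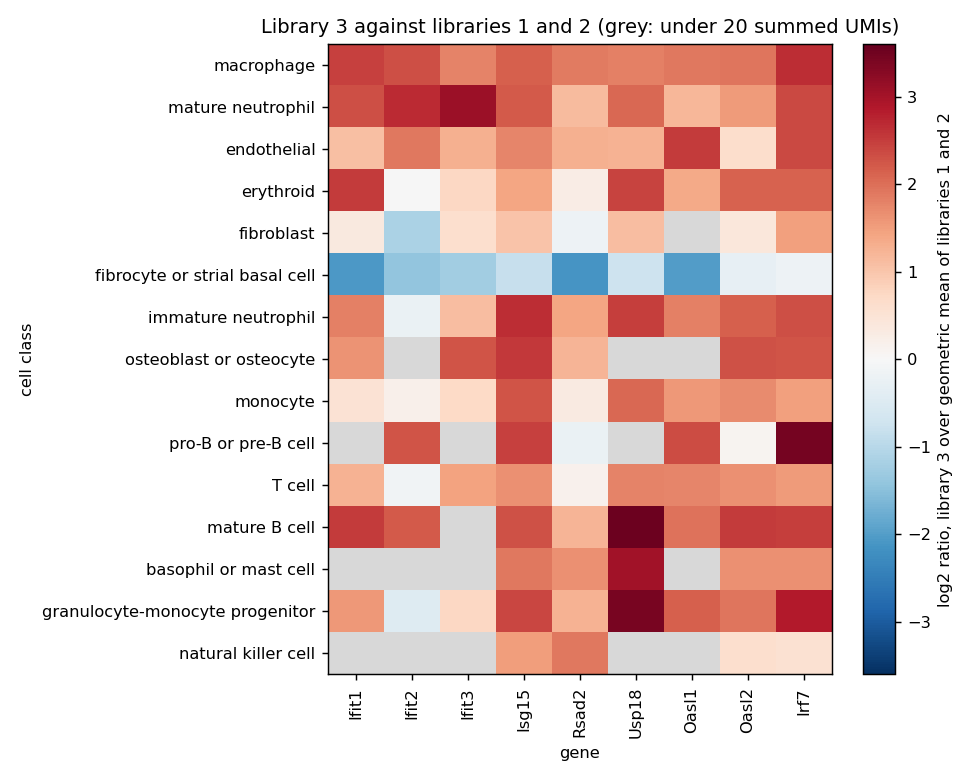
Log2 ratio of the CPM of each gene in library 3 over the geometric mean of libraries 1 and 2, by cell class, red for higher in library 3, blue for lower and grey for under 20 summed UMIs. Fibrocytes or strial basal cells are blue in every column, from −2.12 for Rsad2 to −0.17 for Irf7.

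Single cells of library 3 held more of the members at once. The share of kept cells with at least 3 of the 9 was 52.0% in library 3, against 10.8% and 12.2% in libraries 1 and 2. The share with at least 5 was 24.7% in library 3, against 2.98% and 3.15% in libraries 1 and 2. Since library 3 was deeper, each cell was also thinned to 2000 UMIs, leaving out 842 shallower cells in library 3, against 1465 and 1005 shallower cells in libraries 1 and 2. At that depth at least 3 members were found in 17.3% (16.6 to 18.1) in library 3, against 3.63% (3.34 to 3.94) and 3.62% (3.23 to 4.03) in libraries 1 and 2. Library 3 was thus above the other libraries at equal depth too. All 9 were found in 5 cells in library 3, against 0 and 0 cells in libraries 1 and 2. Among macrophages at full depth at least 5 members were found in 53.7% (49.3 to 58.0) in library 3, against 4.20% (2.11 to 7.39) and 7.22% (4.52 to 10.8) in libraries 1 and 2. With macrophages thinned to 1000 UMIs, at least 3 were found in 25.2% in library 3, against 0.862% and 3.26% in libraries 1 and 2. Among mature neutrophils at full depth at least 5 were found in 38.0% in library 3, against 4.28% and 3.02% in libraries 1 and 2. In fibrocytes or strial basal cells the order was again the opposite, with at least 5 in 9.33% (6.29 to 13.2) in library 3, against 18.9% (11.4 to 28.5) and 21.0% (14.6 to 28.8) in libraries 1 and 2, although library 3 overlapped library 1. No class is known to lack these genes, so the share of cells that free RNA gives was not measured. Natural killer cells of library 3 are given here because their summed level was the lowest, which makes them no such measure. Of these 76 cells, at a median of 7671 UMIs, 0 had an Ifit3 UMI, which by a limit of 3 counts allows a share of up to 3.95%, and Isg15 had a UMI in 32.9%.

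**Figure D4:**
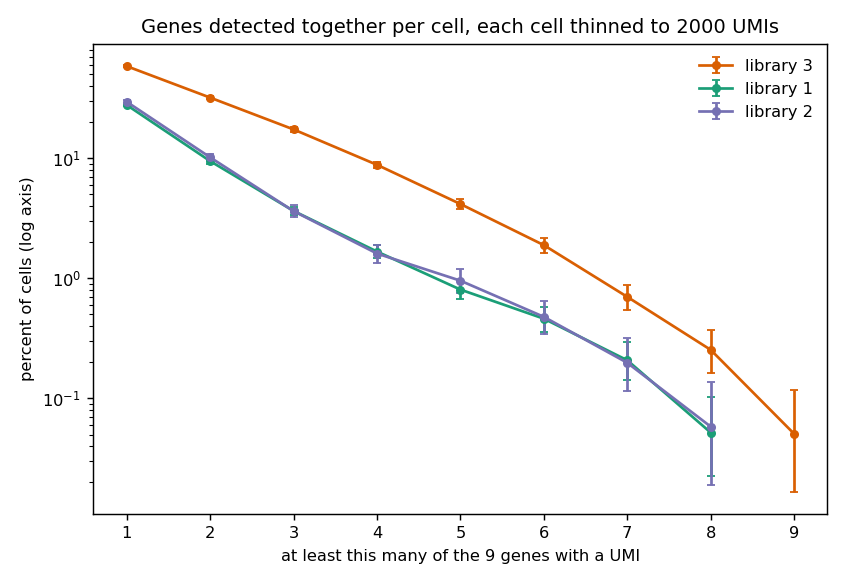
Percent of kept cells (log axis) with at least 1 to 9 of the 9 genes, each cell thinned to 2000 UMIs, 1 line per library with exact 95% binomial intervals. At 3 genes the values are 17.3% in library 3, against 3.63% and 3.62% in libraries 1 and 2, and no point is drawn where the count was 0.

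Members were also found in the same cells. For each of the 36 pairs of members the share of cells with both was divided by the product of the 2 shares, over cells with a class, thinned to 2000 UMIs. The ratio was above 1 for all 36 pairs in each library, with a median of 2.02 in library 3, against 4.01 and 3.77 in libraries 1 and 2. These cells are of many classes, so classes in which both genes are high raise the ratio. The ratio cannot exceed 1 divided by the larger of the 2 shares, so its bound is lower where a gene is found in more cells. Isg15 was found in 2483 of 7985 cells in library 3, against 908 of 13463 and 813 of 7367 in libraries 1 and 2. The size of a ratio, over all classes or within 1 class, is therefore not comparable between libraries. Ifit1 was found in 41.7% of cells with Ifit3 and 8.98% of cells without it in library 3. The shares were 38.5% and 2.69% in library 1, and 48.9% and 2.53% in library 2. This pair had the highest ratio in libraries 1 and 2, and Ifit2 with Ifit3 had it in library 3. The lowest ratios were those of Isg15 with Usp18 in library 3 (1.58), Ifit2 with Oasl2 in library 1 (1.20) and Rsad2 with Irf7 in library 2 (1.97). Within mature neutrophils the ratio of Ifit1 with Ifit3 was 1.85 in library 3, against 5.09 and 10.7 in libraries 1 and 2. Within fibrocytes or strial basal cells it was 2.72 in library 3, against 2.41 and 2.61 in libraries 1 and 2.

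Over all kept cells, and in macrophages and mature neutrophils, the raw UMIs of the 9 genes were spread over a larger share of cells in library 3. In endothelial cells they were most evenly spread in library 1. Cells were ranked at full depth, and spread at equal depth was not measured. Where cells hold few such UMIs, the top cells hold a larger share by counting alone, so level and depth enter these shares. The 5% of kept cells with the most such UMIs held 29.4% in library 3, against 46.9% and 55.5% in libraries 1 and 2. In macrophages they held 22.2% in library 3, against 45.4% and 44.0% in libraries 1 and 2, and in mature neutrophils 21.8% in library 3, against 32.0% and 40.0% in libraries 1 and 2. In fibrocytes or strial basal cells libraries 3 and 1 were close, with 36.3% in library 3, against 37.1% and 55.6% in libraries 1 and 2. Cells in which the 9 genes made up at least 1% of all UMIs were few in every library, numbering 42 in library 3, against 45 and 34 in libraries 1 and 2. Their share of the UMIs of the 9 genes was 3.42% in library 3, against 8.29% and 9.83% in libraries 1 and 2. Of these cells, mature neutrophils were 13 in library 3, against 14 and 9 in libraries 1 and 2. Erythroid cells were 15 in library 3, against 0 and 12 in libraries 1 and 2, and cells without a class 2 in library 3, against 18 and 5 in libraries 1 and 2. Cells of this kind thus occurred in each library.

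**Figure D5:**
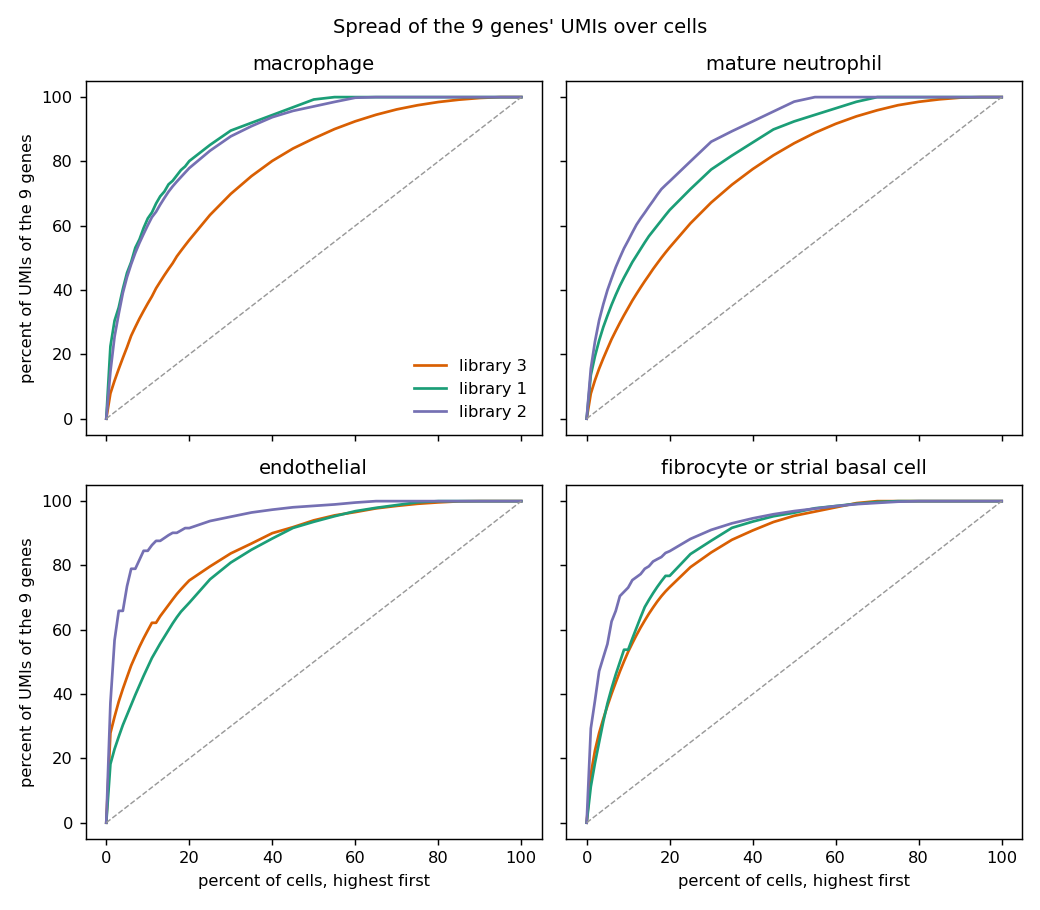
Cumulative percent of the UMIs of the 9 genes held by cells ranked from highest to lowest at full depth, in 4 classes. Each library has 1 line, and a dashed line marks an even spread. In macrophages the highest 5% of cells hold 22.2% in library 3, against 45.4% and 44.0% in libraries 1 and 2.

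Upstream of the 9 genes, the interferon genes themselves were scarce. Of 20 such genes, 5 had any UMI in kept cells and 15 had none. Ifnb1, encoding interferon beta, had 61 UMIs in 29 macrophages of library 3, against 5 UMIs in 4 macrophages and 1 UMI in 1 macrophage of libraries 1 and 2. Its UMIs in all kept cells numbered 89. Ifna2 had 7 UMIs in 6 macrophages of library 3 and none in macrophages of libraries 1 and 2. Macrophages were thus the class with most UMIs of both. Macrophages of library 3 with an Ifnb1 UMI had a summed member level of 2685 CPM (2503 to 2876), against 2134 CPM (2089 to 2179) in those without. In library 1 the 4 macrophages with it stood at 829 CPM (442 to 1418), against 518 CPM (475 to 564) in those without, which overlap, and in library 2 only 1 cell had it. Macrophages without an Ifnb1 UMI stood at 2134 CPM in library 3, against 518 and 467 CPM in libraries 1 and 2. The 29 macrophages of library 3 with an Ifnb1 UMI held 812 member UMIs, and these intervals leave out the spread between cells. In library 3, 1 macrophage alone held 193 member UMIs. Whether macrophages with and without Ifnb1 differ in cluster was not tested. Ifng, the type II interferon, was found mainly in T cells, with 104 UMIs in library 3, against 125 and 96 UMIs in libraries 1 and 2, and in natural killer cells, with 121 UMIs in library 3, against 96 and 22 UMIs in libraries 1 and 2.

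Receptors and signal transducers were higher in library 3 in 35 of 142 pairs (24.7%), beside the same 12.0% of all genes. Jak1 was called in 1 of 15 classes and stood over all kept cells at 140.4 CPM in library 3, against 178 and 140.3 CPM in libraries 1 and 2. Ifnar2 was called in 1 of 15 and stood at 99.9 CPM in library 3, against 109 and 91.9 CPM in libraries 1 and 2. Irf8, a transcription factor of myeloid cells, was called in 3 of 15. These genes were named by their level, and the calls were uneven over the list. The transcription factors Irf9 and Stat2 were called in 8 of 15 classes each, Ifnar1 in 0 of 15 and Tyk2 in 0 of 13. Sensors of nucleic acid were higher in 45 of 94 pairs (47.9%). Zbp1 was called in 11 of 14 classes and stood at 99.6 CPM in library 3, against 33.8 and 22.7 CPM in libraries 1 and 2. The RNA sensors Ifih1 and Ddx58 were called in 10 of 13 and 9 of 15 classes, and the DNA sensor Cgas in 4 of 11.

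Other genes induced by type I interferon were higher in library 3 in 207 of 272 pairs (76.1%). This list too was chosen with earlier results of these data known. Ifi27l2a was called in 13 of 15 classes and stood at 818 CPM in library 3, against 355 and 347 CPM in libraries 1 and 2. Bst2, which tethers budding virus, was called in 13 of 15 and stood at 249 CPM in library 3, against 96.8 and 91.8 CPM in libraries 1 and 2. Trim30a was called in 12 of 14 and stood at 121 CPM in library 3, against 71.9 and 45.2 CPM in libraries 1 and 2. Isg20, an exonuclease gene, was called in 11 of 15 classes although over all cells it stood at 102 CPM in library 3, against 15.2 and 109 CPM in libraries 1 and 2. Genes mainly induced by interferon gamma were higher in 53 of 86 pairs (61.6%). Among them, Gbp2 was called in 13 of 15 classes, Irf1 in 9 of 15, Gbp5 in 8 of 12 and Cxcl9 in 7 of 10.

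The pattern of the 9 genes was set beside that of every other gene over 49 sums of 1 class in 1 library with at least 50 cells, as Pearson's r between log2(CPM + 1) and the mean of the 9, among 8656 genes that reached 50 CPM in a sum. The sums share libraries and differ in depth, so r is a description. The 10 genes most alike were Ifih1 (0.85), Ifit3b (0.84), Irgm2 (0.83), Rtp4 (0.80), Irgm1 (0.80), Cxcl10 (0.79), Eif2ak2 (0.78), Parp14 (0.77), Xaf1 (0.77) and Znfx1 (0.77). Against the mean of the other 8 members, r was 0.88 for Oasl2 and 0.87 for Isg15. It was lowest for Ifit2 (0.57) and Oasl1 (0.52).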

How the data were processed

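The authors deposited 1 matrix of raw UMI counts per gene and cell barcode for the 3 libraries, made with Cell Ranger 7.1.0 per the file headers, from 10x 3′ libraries per the labels' protocols, on GRCm39 per the submitters' processing notes. Kept barcodes (37188 of 39092) held 144942023 UMIs in library 3, against 131084591 and 92188324 UMIs in libraries 1 and 2, and the number of UMIs limits the precision of each value. A cell was given the class with at least 3 markers present and more than any other of the 22 lists, where a marker was present with a UMI and at least 5% of its mean level in its top 50 cells. Doublets called by scrublet (expected 6%) numbered 506 in library 3, against 951 and 450 in libraries 1 and 2, and were kept. UMIs were summed per class and library and divided by the total. No comparison between the study's groups was possible, so there are descriptions and no tests. The code that makes the 1.5-fold calls was checked on simulated counts with known changes. The marker limits, the Leiden resolution of 2 and the cluster naming were set after the files were seen, and the members and lists were chosen with earlier results of these data known. Genes named were the 9 members, up to 4 genes of each list with the highest CPM over all kept cells, and the 10 most like the members. Irf9, Stat2, Ifnar1, Tyk2 and the genes that became most like the members under an alternative were named in addition. Mx1, Mx2 and Sting1 were not analysed here, and 1 gene that the rule names is not reported here. Alternatives were TMM factors, doublets left out, 2 or 4 markers, other marker limits, Leiden classes, thinned cells, other filters and a 2-fold limit. TMM factors alone came from edgeR 4.0.16 in R 4.3.3. Cells were handled with scanpy 1.11.5, anndata 0.12.19 and python-igraph 0.11.9, intervals with scipy 1.17.1, tables with pandas 2.3.3 and numpy 2.4.6, and plots with matplotlib 3.10.9, all in Python 3.11.15.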

Additional observations from a re-analysis of the deposited data

How the results depend on the processing

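No paired analysis was possible because each group is 1 library, the barcode suffixes match no label, and no result comes from a test. The count of 93 pairs of a member and a class higher in library 3 ran from 72 to 101 over its alternatives, lowest where at least 20 UMIs were asked for in libraries 1 and 2 together and highest with no filter, as the number of pairs also changed. The share over all genes was computed only for the main filter (12.0%) and for that of libraries 1 and 2 (9.52%), so the other counts have none beside them. Classes with the summed members past 1.5-fold in library 3 numbered 13 of 15, and 12 to 14 over the alternatives. Fibrocytes or strial basal cells stayed lower in library 3, with a log2 ratio of −1.28 and −1.39 to −1.01 over the alternatives. Natural killer cells came to 0.06 without called doublets. Of 149 alternatives for the class ratios, 100 were labelled the same as reported. Another 48 kept their sign but were labelled as moved in size, so the sizes of the ratios were less stable than their signs. The remaining 1 changed sign, that of natural killer cells with markers counted from 2% of their top level. It stood at −0.0182 against 0.63 as reported, and the cause was not tested. Fibroblasts ranged over 0.12 to 1.11 and endothelial cells over 0.69 to 2.11. The share of cells with at least 3 members was 8.02% in library 3, against 1.87% and 1.77% in libraries 1 and 2 when thinned to 1000 UMIs, and 17.3% in library 3, against 3.63% and 3.62% in libraries 1 and 2 when thinned to 2000 UMIs. Without Irf7 it was 44.5% in library 3, against 8.57% and 9.77% in libraries 1 and 2. Without called doublets it was 10.0% in library 1 and 11.4% in library 2. The share of cells with any member UMI was 43.3% in library 3, against 18.7% and 20.3% in libraries 1 and 2 when thinned to 1000 UMIs, and 84.7% in library 3 with at most 10% mitochondrial UMIs. Library 3 had the highest share under each of these settings for which the values of all 3 libraries are given here. Of the 10 genes most like the members, 7 were found again with values centred within each library and 9 with a pseudocount of 10. Centring brought in Slc16a9 (r 0.78), Slc1a3 (0.75) and Creb5 (0.75) instead, and the pseudocount brought in Parp12 (0.80). Hair cells are limited by their number of cells, 15 and 8 in libraries 1 and 2, and the interferon genes by their few UMIs. The alternatives on marker limits, second classes, UMIs in libraries 1 and 2 and shared barcodes were chosen after seeing the data.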
